A study of Homo sapiens with 4 samples.

Results

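KLF2, KLF4, KLF6, KLF10 and MYC are transcription factor genes of the early response, and their nascent RNA is described here in U2OS cells, an osteosarcoma line, kept in hypertonic or isotonic medium. The members were chosen by gene symbol and taken on the gene's own strand: 5 of 57428 genes, of which 4 passed the filter on low counts and were among 21238 genes tested. KLF4 did not pass it. The hypertonic group held 2 libraries at 300 mM sodium, reached with concentrated phosphate-buffered saline, and the isotonic group held 2 libraries at 150 mM sodium with a mock addition of the same volume. Cells of both groups carried a stable GFP-DCP1a transgene, which encodes a decapping cofactor, and were grown under G418 selection in medium with serum. RNA made during 30 min of labelling with 2 mM bromouridine (Bru-seq) was captured with an antibody and sequenced, with 0 h between labelling and extraction. The labels give neither the time spent in hypertonic medium nor whether replicates were separate cultures or the cells 1 clone, so the spread behind every p-value may be only technical.

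KLF proteins bind GC-rich and CACCC-type sites through zinc fingers at their C-terminal end, and several are switched on within minutes to hours of serum, growth factors, shear stress or injury. KLF2 is known for its induction by blood flow in endothelium and for quiescence of T cells, and KLF4 for epithelial differentiation and pluripotency. KLF6 is a widely expressed factor induced by injury, and KLF10 was isolated from human osteoblasts as a gene induced early by TGF-beta. MYC pairs with MAX on the E-box CACGTG to drive growth genes, and its mRNA is short-lived, so its level follows transcription closely. All of them belong to the early-response class, in which a change of medium or of serum contact is itself a known stimulus.

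The libraries held 23048409 to 44888307 counts, and the 2 isotonic libraries were the deepest and the second shallowest. Over the genes tested, log2 CPM (counts scaled to a common library size, set by TMM) correlated at 0.891 between the hypertonic and at 0.972 between the isotonic libraries, across genes that are not independent replicates. Of the sense plus antisense counts of genes, the antisense strand took 8.60 and 6.03% in the hypertonic libraries. It took 3.17 and 3.36% in the isotonic ones. DCP1A, the overexpressed gene, measured 314 and 199 CPM under hypertonic and 283 and 630 CPM under isotonic conditions. Of 10 mesenchymal or osteoblastic markers, 4 measured at least 1 RPKM (reads scaled by gene length and library size) in every library, led by VIM, and the list summed to 38.9 and 27.7 RPKM in the hypertonic and 29.6 and 24.0 RPKM in the isotonic libraries, while ALPL, COL1A2 and TWIST1 stayed under 0.05 RPKM. The summed RPKM of 5 endothelial markers was 0.294 and 0.184 in the hypertonic and 0.0855 and 0.125 in the isotonic libraries, and that of 7 haematopoietic markers was 0.215 and 0.144 against 0.0202 and 0.0306. For 6 epithelial markers it was 2.31 and 4.66 against 1.70 and 1.89. The last 3 sums were higher in both hypertonic libraries, and their part in the results on the KLF genes was not tested. The endothelial markers PECAM1 and KDR and 6 of the haematopoietic markers, PTPRC and CD3E among them, were under 0.05 RPKM in all 4 libraries. CD14, the remaining haematopoietic marker, measured 0.175 and 0.0750 RPKM in the hypertonic libraries, on 12 and 4 counts, and 0 in both isotonic ones. It thus made up most of the haematopoietic sum in hypertonic medium. TEK, an endothelial receptor gene named after its values were seen, measured 35.4 and 7.11 CPM under hypertonic and 3.21 and 3.92 CPM under isotonic conditions (2.57 ± 0.80; edgeR, adjusted p = 0.289; DESeq2, 0.0207).

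KLF6 (ENSG00000067082, hg38 chromosome 10, 3775996 to 3785281, minus strand) measured 24.8 and 15.9 CPM in hypertonic replicates 1 and 2, against 44.95 and 105 CPM in isotonic replicates 1 and 2. Both hypertonic values were under both isotonic values, and the isotonic libraries stood further apart than the hypertonic ones. The means were 20.3 ± 6.25 CPM in hypertonic and 75.1 ± 42.7 CPM in isotonic medium (SD, n = 2 each). Fitted, the log2 fold change was -1.89 ± 0.54 (SE) on 405 to 2041 counts a library. That difference did not pass the test over all genes (edgeR quasi-likelihood, adjusted p = 0.261, unadjusted 0.00713). It passed in DESeq2 (adjusted p = 0.0499) and in edgeR without the filter on low counts (adjusted p = 0.0234), with log2 fold changes of -1.90 and -1.95. Without isotonic replicate 2 the log2 fold change was -1.14 ± 0.99.

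KLF10 (ENSG00000155090, chromosome 8, 102648779 to 102655902, minus strand) measured 35.5 and 29.6 CPM in the hypertonic pair, against 45.5 and 109.7 CPM in the isotonic pair. The groups did not overlap here either, but hypertonic replicate 1 and isotonic replicate 1 were 0.36 apart on the log2 scale, while the isotonic libraries were 1.27 apart. The means were 32.6 ± 4.14 CPM in hypertonic and 77.6 ± 45.4 CPM in isotonic medium (SD, n = 2 each), which gave a log2 difference of -1.25 ± 0.51 (SE). It did not pass over all genes (edgeR, adjusted p = 0.416, unadjusted 0.0371; DESeq2, adjusted p = 0.317). Leaving out isotonic replicate 2 brought the log2 fold change to -0.48 ± 0.96.

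MYC (ENSG00000136997, chromosome 8, 127735434 to 127741434, plus strand) measured 116 and 35.05 CPM in the hypertonic pair, against 83.2 and 287 CPM in the isotonic pair. The groups overlapped: hypertonic replicate 1 lay above isotonic replicate 1. Within hypertonic medium the libraries were 3.32-fold apart and within isotonic medium 3.44-fold. The means were 75.8 ± 57.6 CPM in hypertonic and 185 ± 144 CPM in isotonic medium (SD, n = 2 each), which gave a log2 difference of -1.29 ± 0.69 (SE) that did not pass (edgeR, adjusted p = 0.574, unadjusted 0.0950). Which library was left out set its size, with -2.40 and -0.63 when hypertonic replicate 1 or 2 was dropped and -1.90 and -0.14 when isotonic replicate 1 or 2 was dropped.

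KLF2 (ENSG00000127528, chromosome 19, 16324817 to 16327874, plus strand) was transcribed at a far lower level, on 12 to 46 counts a library. It measured 1.18 and 1.53 CPM in the hypertonic pair, against 0.294 and 2.37 CPM in the isotonic pair, so that both hypertonic values lay between the isotonic ones. The means were 1.36 ± 0.247 CPM in hypertonic and 1.33 ± 1.47 CPM in isotonic medium (SD, n = 2 each). The log2 fold change was 0.06 ± 0.97 (SE; edgeR, adjusted p = 0.998). Dropping isotonic replicate 1 gave -0.80 and dropping isotonic replicate 2 gave 2.19, so these data fix no direction for KLF2.

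KLF4 (ENSG00000136826, chromosome 9, 107484852 to 107489766, minus strand) had 3 and 3 counts in the hypertonic libraries, against 0 and 0 counts in the isotonic libraries. In CPM this was 0.127 and 0.118 in hypertonic medium, while the 0 of the isotonic libraries allows up to 0.0736 and 0.155 CPM (3 counts, counting error only). All 4 values are at or under the limit that 3 counts set, so no fold is given and no difference was detectable at this depth.

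**Figure D1:**
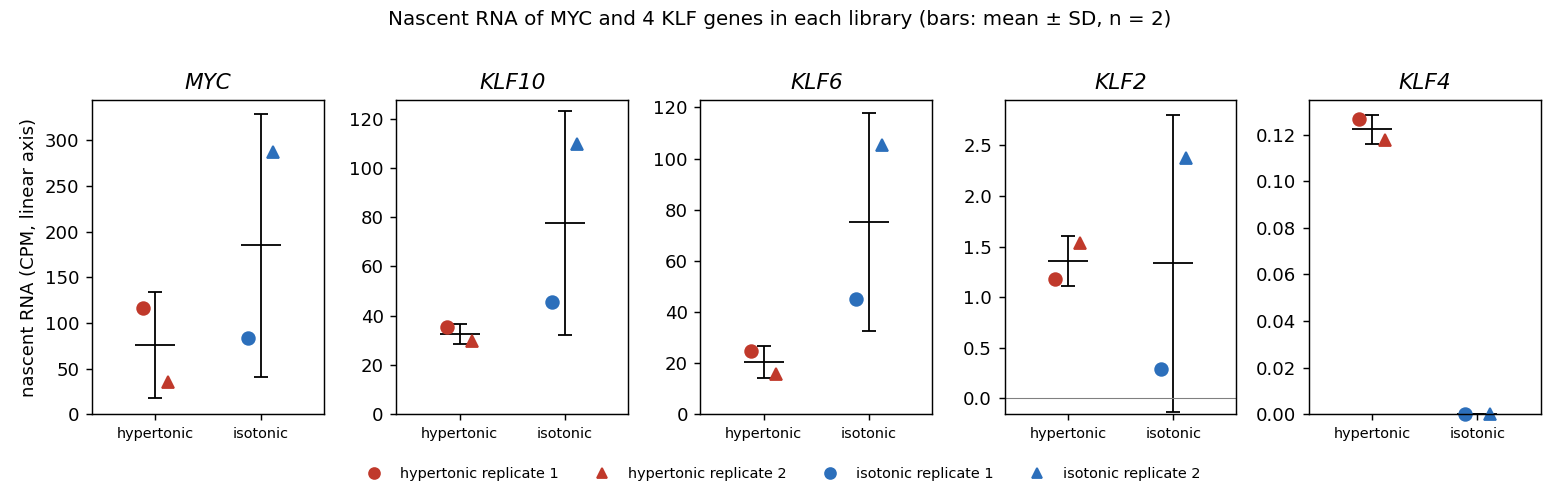
Nascent RNA in CPM (linear axes, 1 scale per gene) for MYC, KLF10, KLF6, KLF2 and KLF4, with 1 point per library and bars for the mean ± SD of the 2 libraries of a group. KLF6 and KLF10 lie below both isotonic libraries in both hypertonic libraries, MYC and KLF2 overlap, and KLF4 is at 3 counts or 0.

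Set against the whole table, 0 of the 4 members tested passed in edgeR at an adjusted p of 0.05, as did 0 of all 21238 genes (0%), while an unadjusted p under 0.05 was reached by 427 genes lower (2.01%) and 1889 genes higher (8.89%) in hypertonic medium. KLF6 and KLF10 were among the lower ones. DESeq2 called 25 genes lower (0.118%), KLF6 among them, and 706 higher (3.32%), 3.44% in all. EdgeR without the filter on low counts called 1 member, KLF6, beside 47 lower (0.126%) and 869 higher (2.33%) of 37347 genes, 2.45% in all. With the replicate number as a block it called 0 members, beside 4 genes lower (0.0188%) and 380 higher (1.79%), 1.81% in all. Libraries of the groups did not overlap, with hypertonic below isotonic, for 2 of the 4 members and for 17.5% of all genes tested. Among 8953 protein-coding genes with a mean of at least 10 CPM, a level that MYC, KLF6 and KLF10 exceed, that share was 28.6%. An exact two-sided permutation test on log2 CPM gave p = 0.333 for KLF6 and for KLF10, the smallest value that 2 against 2 libraries allow, and 0.667 for MYC and 1.000 for KLF2. Another scaling moved the median log2 fold change of all genes tested, which was 0.04 with TMM, 0.01 with RLE, 0.26 with total counts and 0.23 with the upper quartile. Relative to that median KLF6 stood at -1.94 to -1.91 under the 4 scalings, KLF10 at -1.29 to -1.28, MYC at -1.39 to -1.29 and KLF2 at 0.02 to 0.09. Subtracting the median takes out most of what a scaling moves, so these narrow ranges do not test the scaling. Without it KLF6 was at -1.90 to -1.68, KLF10 at -1.27 to -1.02, MYC at -1.29 to -1.07 and KLF2 at 0.03 to 0.35. The protein-coding genes with at least 10 CPM had a median of -0.18 with TMM.

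**Figure D2:**
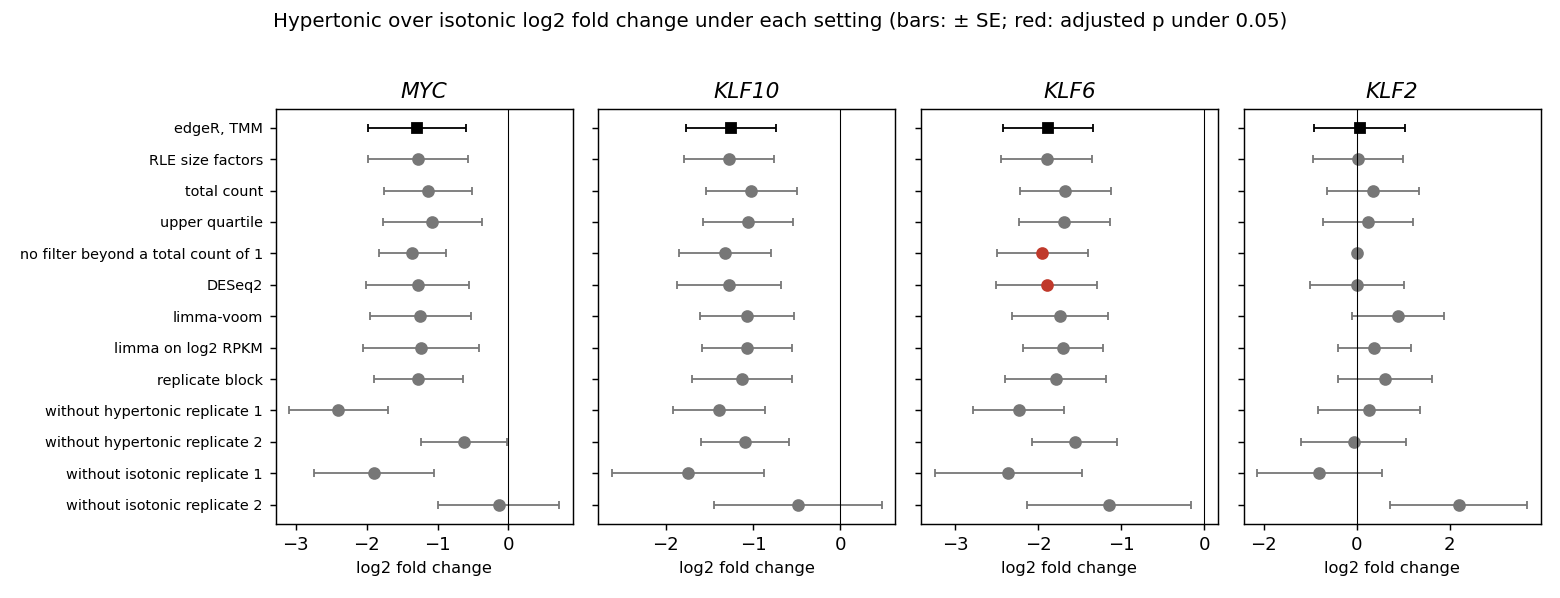
Log2 fold change of hypertonic over isotonic medium (x axis, bars ± SE, no bar for KLF2 without the filter) for MYC, KLF10, KLF6 and KLF2 under edgeR with TMM (squares) and 12 other settings. KLF6, KLF10 and MYC stay below 0 throughout, KLF6 passes the adjusted threshold in DESeq2 and without the filter (red), and KLF2 lies on either side of 0.

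Per length, the members kept 1 order in every library, MYC above KLF10, KLF10 above KLF6, KLF6 above KLF2 and KLF2 above KLF4. MYC measured 13.2 and 5.50 RPKM in the hypertonic and 11.3 and 35.7 RPKM in the isotonic libraries, more than 97.3 to 99.8% of the 14523 protein-coding genes tested. KLF10 measured 3.39 and 3.92 RPKM in the hypertonic and 5.23 and 11.5 RPKM in the isotonic libraries, above 95.3 to 99.1% of those genes. KLF6, at 1.81 and 1.62 against 3.96 and 8.46 RPKM, exceeded 90.9 and 78.0% of them in hypertonic and 94.9 and 98.4% in isotonic medium. Over the 4 libraries the ranges of MYC and KLF10 overlapped, as did those of KLF10 and KLF6, so their order held within a library and not across libraries. KLF2, at 0.262 and 0.467 RPKM in hypertonic and 0.0787 and 0.579 RPKM in isotonic medium, did not reach the lowest value of KLF6. KLF4 was at 0.0175 and 0.0226 RPKM in hypertonic medium and at 0 in both isotonic libraries. The ratio of KLF10 to KLF6 per length was 1.87 and 2.42 in the hypertonic and 1.32 and 1.36 in the isotonic libraries, while that of MYC to KLF10 was 3.90 and 1.40 in the hypertonic and 2.17 and 3.10 in the isotonic libraries. KLF10 thus stood higher relative to KLF6 in both hypertonic libraries, a difference that was not tested. MYC relative to KLF10 varied within each group.

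The RefSeq promoter table (GRCh38.p14) held 3 of the 5 members, KLF2, KLF4 and KLF6, and not KLF10 or MYC. The 250 bases before each start are shown, 5′ to 3′ on the gene's strand, because KLF6 and KLF4 both hold the E-box that MYC and MAX bind, and because KLF2 holds a MEF2 box, the kind of site through which ERK5 is known to induce KLF2. Capitals mark CACGTG in KLF6 (chr10:3785210-3785459, minus strand) and KLF4 (chr9:107489770-107490019, minus strand) and the MEF2 box in KLF2 (chr19:16324576-16324825, plus strand).
KLF6: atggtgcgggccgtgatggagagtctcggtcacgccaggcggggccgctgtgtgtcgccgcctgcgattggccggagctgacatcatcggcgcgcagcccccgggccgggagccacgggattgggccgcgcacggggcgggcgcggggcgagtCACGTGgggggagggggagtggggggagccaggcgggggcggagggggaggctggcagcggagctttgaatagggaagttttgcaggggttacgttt
KLF2: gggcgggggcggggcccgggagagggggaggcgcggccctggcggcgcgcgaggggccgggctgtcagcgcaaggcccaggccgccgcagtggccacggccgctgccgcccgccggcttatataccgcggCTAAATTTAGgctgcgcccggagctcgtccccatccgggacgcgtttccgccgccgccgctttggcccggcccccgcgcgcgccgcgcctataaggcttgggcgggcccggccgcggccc
KLF4: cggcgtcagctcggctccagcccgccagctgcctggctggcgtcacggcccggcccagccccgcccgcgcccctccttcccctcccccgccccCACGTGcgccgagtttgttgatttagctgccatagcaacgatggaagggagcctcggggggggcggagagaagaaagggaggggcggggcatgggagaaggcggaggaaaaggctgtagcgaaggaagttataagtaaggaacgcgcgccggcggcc
On both strands, CACGTG matched 1 place in KLF6 and 1 in KLF4 and was found in 6.35% of 35116 promoter windows of this length, and the MEF2 box matched 1 place in KLF2 and was found in 2.80% of windows. The GC box GGGCGG matched 4 places in KLF2, 4 in KLF4 and 2 in KLF6, against 42.6% of windows with at least 1 match. The short cyclic-AMP motif TGACG matched 2 places in KLF4 (21.2% of windows). TGACGTCA, which contains TGACG, had no match in the 3 windows (1.65% of all), nor had CACCC (54.7%) or the CArG box of serum response factor (1.16%). The GC content was 72.4% for KLF6, 80.0% for KLF2 and 69.2% for KLF4, beside a median of 58.0% over all windows. A match describes letters in the window and not binding.

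Isotonic replicate 2 was the highest library for each of MYC, KLF6, KLF10 and KLF2, by 3.44-, 2.34-, 2.41- and 8.07-fold over isotonic replicate 1. The same library was high for other immediate early genes, a list of 39 symbols of which 35 were tested: their median difference between isotonic replicates 2 and 1 was 2.52 on the log2 scale, beside 0.00 for all genes tested. Hypertonic replicate 1 stood above hypertonic replicate 2 by a median of 1.82 for these genes, by 1.73 for MYC, 0.64 for KLF6, 0.26 for KLF10 and -0.37 for KLF2. MYC followed the library order of the early genes, while KLF6 and KLF10 differed less between the hypertonic libraries. FOS, the AP-1 subunit, measured 148 and 9.90 CPM under hypertonic and 16.8 and 324 CPM under isotonic conditions. Of the 35 genes, 28 had a negative and 7 a positive fitted log2 fold change, with a median of -1.19, beside 47.6% negative and a median of 0.04 over all genes tested, and 66.6% negative and a median of -0.18 over the protein-coding genes with at least 10 CPM. EdgeR and DESeq2 called 0 of them, and 3 were lower at an unadjusted p under 0.05 in edgeR: the nuclear receptor genes NR4A3 (-4.64 ± 1.62) and NR4A1 (-2.88 ± 1.24) and the MAP kinase phosphatase gene DUSP1 (-1.97 ± 0.79). The median of the 35 was 0.80 without isotonic replicate 2, -1.96 without isotonic replicate 1, and -2.25 and -0.51 without hypertonic replicate 1 or 2. Each hypertonic library was below each isotonic one for 1 of the 35, ZFP36L1, and above for 2, RHOB and EGR3, genes named after their values were seen. These shares, 2.86 and 5.71%, were under the 17.5 and 22.5% of all genes tested. Of protein-coding genes with at least 10 CPM, 28.6% lay below and 8.99% above.

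**Figure D3:**
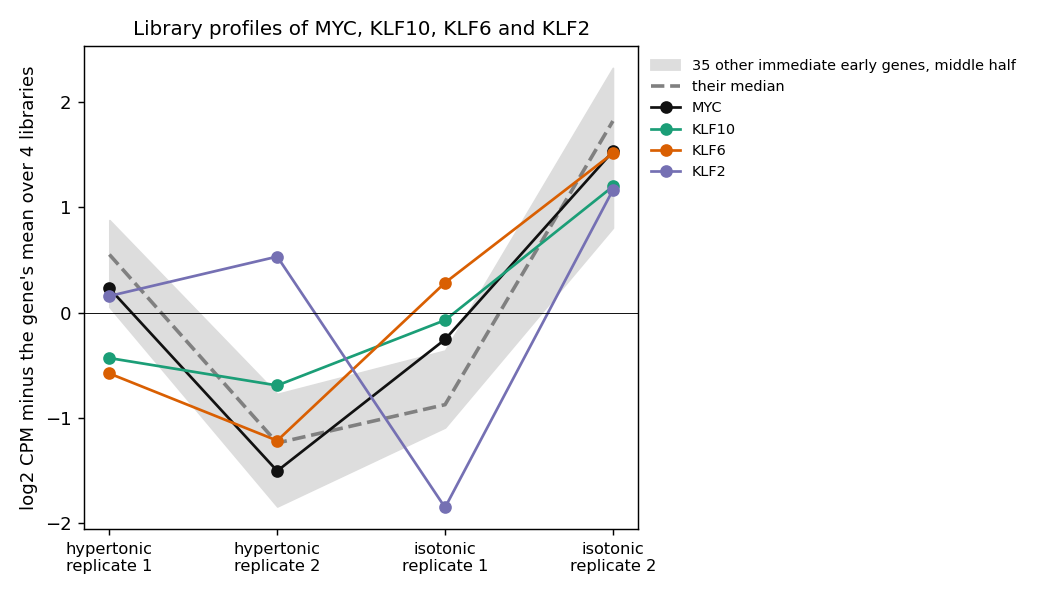
Log2 CPM minus the gene's mean over the 4 libraries (y axis) for MYC, KLF10, KLF6 and KLF2 in each library, with the median and the middle 50% of 35 other immediate early genes in grey. Isotonic replicate 2 is the highest library for all 4 genes, MYC follows the early genes through the other libraries, and KLF6 and KLF10 are lowest in the hypertonic libraries.

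Among the 8953 protein-coding genes with a mean of at least 10 CPM, the genes with the most similar library profile were found by the Euclidean distance of centred log2 CPM over the 4 libraries. For MYC these were IER3, an early-response survival gene (distance 0.169), and NFKBIZ, an atypical inhibitor of NF-kB (0.227). IER3 measured 36.96 and 9.43 CPM under hypertonic and 24.1 and 84.3 CPM under isotonic conditions. For KLF6 they were CCNL1, the gene of a cyclin involved in splicing (0.127), EDN1, which encodes endothelin (0.382), and TLR4, a receptor of innate immunity (0.422). CCNL1 measured 135 and 89.6 CPM under hypertonic and 230.04 and 533 CPM under isotonic conditions, a log2 fold change of -1.76 ± 0.50. For KLF10 they were DHRS2, a dehydrogenase gene (0.126), CALD1, which encodes the actin-binding protein caldesmon (0.129), and CCDC144NL (0.182). For KLF2 they were FLNC, a filamin gene (0.594), THOC6, a subunit of the mRNA export complex THO (0.956), and TMEM217 (1.03), all further away than the neighbours of the other members. The members were 0.722 apart for KLF6 and KLF10, 1.01 for KLF6 and MYC, 1.11 for KLF10 and MYC, and 2.24 to 2.87 for KLF2 and the others. With 4 libraries many genes share a profile, and these distances are a description.

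In the wider family, 16 of 23 other KLF and SP genes were tested, with 10 negative and 6 positive fitted log2 fold changes and a median of -0.45 (-0.47 to -0.22 under the 4 scalings, -0.57 to -0.15 with each library left out, nearest to 0 without isotonic replicate 2). EdgeR and DESeq2 called 0 of them, and at an unadjusted p under 0.05 edgeR gave 0. Each hypertonic library was below each isotonic one for 5 (KLF3, KLF11, SP1, SP2 and SP3) and above for 4 (KLF8, KLF15, SP6 and SP8). These were 31.25 and 25% of the list, beside 17.5 and 22.5% of all genes tested. The share below was near the 28.6% of protein-coding genes with a mean of at least 10 CPM, a level that these 5 exceed. Of the list, 62.5% were negative, beside 66.6% of those protein-coding genes. KLF11, a repressor related to KLF10 and also induced by TGF-beta, measured 8.70 and 17.2 CPM under hypertonic and 39.7 and 23.6 CPM under isotonic conditions, a log2 fold change of -1.29 ± 0.58 (edgeR, adjusted p = 0.467). KLF15, a metabolic regulator, was at 1.90 ± 0.87 on 4 to 36 counts a library, and SP6, known from tooth and skin development, at 1.37 ± 0.76. Per length KLF10 ranked 1 and KLF6 ranked 4 of the 27 KLF and SP genes by their mean RPKM, with KLF5 and SP3 between them, while KLF2 ranked 15 and KLF4 ranked 22. KLF5, a factor of proliferating epithelium, measured 13.8 and 2.14 RPKM in the hypertonic and 3.32 and 3.70 RPKM in the isotonic libraries, so its rank came from hypertonic replicate 1. The first rank of KLF10 rested likewise on isotonic replicate 2, at 11.5 RPKM against 3.39 to 5.23 RPKM in the others. KLF10 was above both KLF5 and SP3 in hypertonic replicate 2 and isotonic replicate 2, and below KLF5 in hypertonic replicate 1 and below SP3 in isotonic replicate 1, where SP3 measured 5.99 RPKM. SP5, SP9 and KLF18 were listed at 0 in all 4 libraries.

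**Figure D4:**
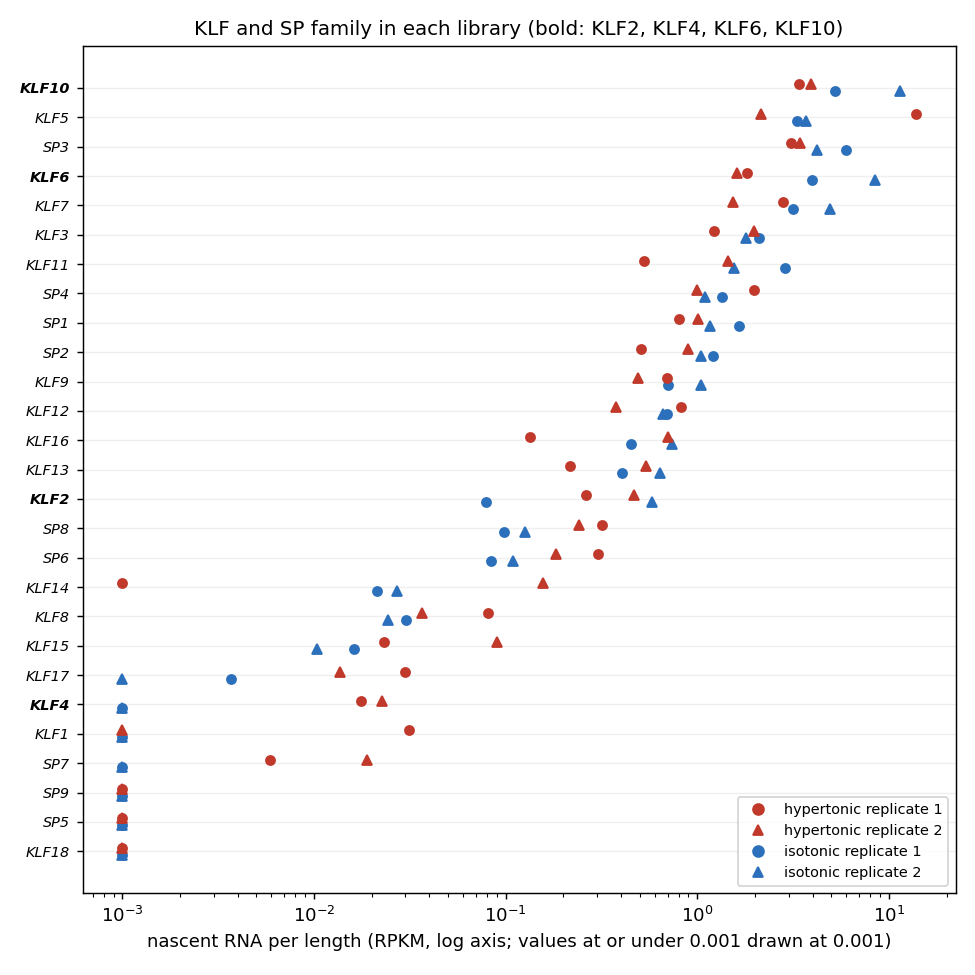
Nascent RNA per length (RPKM, log axis) of 27 KLF and SP genes, ordered by their mean over the 4 libraries, with 1 point per library. KLF10 and KLF6 stand near the top with both hypertonic libraries to the left of both isotonic ones, KLF2 lies in the middle and KLF4 near the bottom.

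The wider dimer network of MYC was taken as MYCN, MYCL, MAX, the MXD genes, MXI1, MNT and MGA, with MLX, MLXIP and MLXIPL. Not all of these pair or compete with MYC directly. Of the 12 genes 11 were tested, 3 with a negative and 8 with a positive log2 fold change. Their median was 0.21 (0.15 to 0.49 under the 4 scalings). Single libraries moved that median, to 0.57 and 0.08 on dropping hypertonic replicate 1 or 2 and to 0.55 and 0.03 on dropping isotonic replicate 1 or 2. EdgeR and DESeq2 called 0, and 2 of the 11 were higher at an unadjusted p under 0.05 in edgeR, beside 8.89% of all genes tested. MXD1, which competes with MYC for MAX, measured 49.8 and 17.4 CPM under hypertonic and 8.39 and 8.72 CPM under isotonic conditions, a log2 fold change of 1.97 ± 0.63 (edgeR, adjusted p = 0.298; DESeq2, 0.0557). MYCL, a MYC paralogue, measured 3.38 and 1.81 against 0.589 and 0.671 CPM (2.04 ± 0.77; edgeR, adjusted p = 0.377). For these 2 genes both hypertonic libraries lay above both isotonic ones, as they did for MLXIP (0.61 ± 0.39) and MLXIPL (1.12 ± 0.80), which was named after its values were seen. These 4 were 36.4% of the list, beside 22.5% of all genes tested, and 0 of the 11 lay below. MAX itself, the partner of MYC, measured 138 and 113 CPM under hypertonic and 141 and 138 CPM under isotonic conditions (-0.16 ± 0.38), also a choice made after its values were seen.

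Genes of MYC turnover and control had 10 of 16 tested members negative and a median of -0.19, which was 0.009 with the upper quartile and 0.11 without isotonic replicate 1. The negative share, 62.5%, and the median were near the 66.6% and -0.18 of protein-coding genes with at least 10 CPM. KIAA1524, whose product CIP2A protects MYC from dephosphorylation, was at -0.71 ± 0.38, and PIM1, a kinase that stabilises MYC, at -0.94 ± 0.62. Known MYC targets had 15 negative and 13 positive members of 28 tested and a median of -0.05, which was 0.29 with total counts, 0.12 with the upper quartile, 0.28 and -0.82 on dropping hypertonic replicate 1 or 2, and 0.02 on dropping isotonic replicate 2. WDR43 and NOP16, genes of ribosome assembly, were at -0.86 ± 0.42 and -0.92 ± 0.54, and TFAM, a mitochondrial DNA factor, at -0.57 ± 0.39. The median difference of hypertonic replicate 1 from hypertonic replicate 2 was -1.27 for the MYC targets. It was -0.11 for all genes tested and -0.04 for protein-coding genes with at least 10 CPM. The order in MYC itself was the reverse, a contrast that was not tested. In these lists edgeR called 0 members, with 0 at an unadjusted p under 0.05, and DESeq2 called 0.

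The kinase route from MAP3K2 and MAP3K3 through ERK5 to MEF2 induces KLF2 and KLF4. Its list also held genes that restrain it, such as PDCD10 and the HDAC repressors of MEF2, so its signs mix both kinds. Of this list 15 of 15 members were tested, 11 of them (73.3%) negative, near the 66.6% of protein-coding genes with at least 10 CPM. Their median of -0.18 was 0.12 with total counts, 0.03 with the upper quartile and -0.33 to -0.02 with each library left out, nearest to 0 without isotonic replicate 2. PDCD10, an adaptor that restrains the route in endothelium, was at -0.79 ± 0.41, the transcription factor gene MEF2D at -0.71 ± 0.49 and HDAC4, a repressor of MEF2, at 0.72 ± 0.53. Genes of TGF-beta signalling, the pathway that induces KLF10, had 18 of 18 members tested, 12 of them (66.7%) negative, again near that share, with a median of -0.34 (-0.09 with total counts, -0.14 without hypertonic replicate 2 and -0.17 without isotonic replicate 2). Each hypertonic library was below each isotonic one for 8 of the 18, or 44.4%, beside 28.6% of protein-coding genes with at least 10 CPM. The receptor gene TGFBR2 measured 148 and 123 CPM under hypertonic and 212 and 258 CPM under isotonic conditions (-0.80 ± 0.38). PMEPA1, a target that dampens the pathway, was at -1.13 ± 0.54 and TGIF1, a corepressor of SMAD proteins, at 1.13 ± 0.51. Reported KLF targets had 5 negative and 6 positive members of 11 tested and a median of 0.08, which became -0.54 on leaving out hypertonic replicate 2 and -0.07 on leaving out isotonic replicate 1. ATF3, also in the early gene list, was at -1.86 ± 1.05, TGFBR1, also in the TGF-beta list, at -0.61 ± 0.38 and CDH1 at 0.87 ± 0.80. EdgeR called 0 members of these 3 lists, with 0 at an unadjusted p under 0.05, and DESeq2 called 0.

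The labels say that strand was kept for certain samples and do not name them, and in all 4 libraries the antisense counts at KLF10 were at most 6 beside at least 754 sense counts. Reads on the strand opposite to the members were few. Both hypertonic values stood above both isotonic ones at 2 of the 4 members with at least 10 antisense counts over the libraries, a share near the 54.8% of 16746 antisense entries with that many counts. KLF6 had 29 and 20 antisense counts in the hypertonic libraries, against 1 and 12 in the isotonic libraries, or 1.23 and 0.786 CPM against 0.0245 and 0.619 CPM. These were 4.72 and 4.70% of the reads of both strands at KLF6 in hypertonic and 0.0545 and 0.585% in isotonic medium. KLF2 had 10 and 7 antisense counts in the hypertonic libraries, against 0 and 1 in the isotonic libraries. Beside its 28 and 39 sense counts in hypertonic medium these made up 26.4 and 14.9% of its reads. At KLF10 there were 2 and 1 antisense counts in hypertonic and 6 and 2 in isotonic medium, and at MYC 4 and 13 against 17 and 15. The antisense share of whole libraries was also higher in hypertonic medium, and its part in the values at KLF6 and KLF2 was not tested.

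Transcripts that start next to MYC and KLF10 and run the other way had positive log2 fold changes where MYC and KLF10 had negative ones, a difference that was not tested, and these opposite-strand neighbours were chosen after their values were seen. CASC11, a long noncoding RNA gene on the opposite strand whose near end lies 1466 bases from the MYC start (chromosome 8, 127686343 to 127733967), measured 4.69 and 6.76 CPM under hypertonic and 0.662 and 1.44 CPM under isotonic conditions. Its log2 fold change was 2.46 ± 0.76 (edgeR, adjusted p = 0.286; DESeq2, adjusted p = 0.0261), and its groups did not overlap, as for 22.5% of all genes tested with hypertonic above isotonic. AP002851.1, a noncoding gene 561 bases from the KLF10 start on the opposite strand (chromosome 8, 102656464 to 102687118), measured 3.72 and 7.86 CPM under hypertonic and 1.55 and 1.81 CPM under isotonic conditions (1.79 ± 0.72; edgeR, adjusted p = 0.413). Its groups did not overlap either. The share above was 8.99% among protein-coding genes with a mean of at least 10 CPM, a level that CASC11 and AP002851.1 do not reach. A share among genes of their own level was not determined. Downstream of MYC on the same strand, 53300 bases away, the noncoding gene PVT1 measured 2258 and 2280.0 CPM under hypertonic and 2757 and 3647 CPM under isotonic conditions (-0.50 ± 0.46). Upstream of KLF10 on the same strand, 170454 bases away, AZIN1, which encodes an inhibitor of ornithine decarboxylase antizyme, measured 125 and 184 CPM under hypertonic and 319 and 592 CPM under isotonic conditions (-1.56 ± 0.46; edgeR, adjusted p = 0.271).

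**Figure D5:**
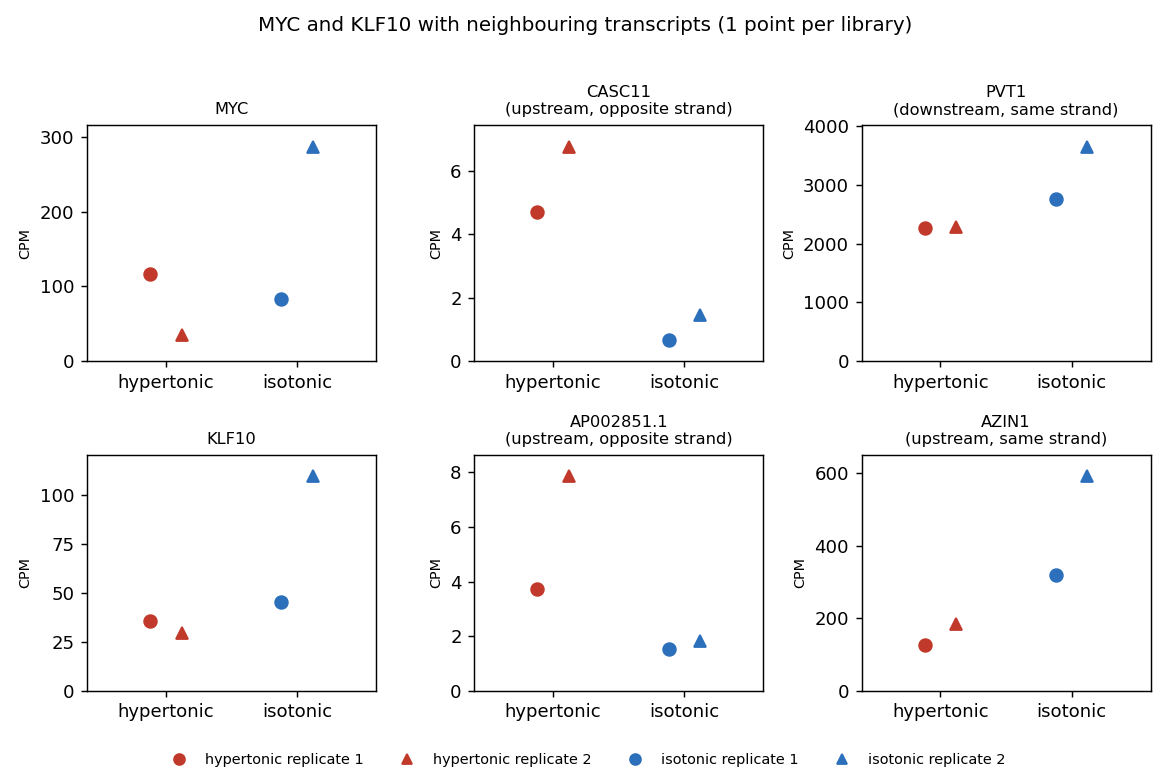
CPM (linear axes from 0) of MYC with CASC11 and PVT1, and of KLF10 with AP002851.1 and AZIN1, with 1 point per library and the hypertonic group at left. CASC11 and AP002851.1 are higher in both hypertonic libraries than in both isotonic ones, KLF10, PVT1 and AZIN1 are lower, and MYC overlaps.

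Of the remaining nearest tested genes on the members' own strands, KLF2 had AP1M1 78909 bases upstream (-0.09 ± 0.48) and C19orf44 168436 bases downstream (-0.14 ± 0.79). KLF6 had LINC00702 415859 bases upstream (0.14 ± 0.54) and PITRM1 603154 bases downstream (-0.25 ± 0.55). No standard error among these 4 was exceeded by its difference. KLF4 had ACTL7B 1364822 bases upstream, at 25 and 14 counts in the hypertonic and 0 and 3 counts in the isotonic libraries, and AL158070.1 1926822 bases downstream (0.76 ± 1.01). MYC had PRNCR1 642833 bases upstream (-0.39 ± 0.89).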

How the data were processed

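Bru-seq libraries of U2OS cells in hypertonic (n = 2) and isotonic medium (n = 2) were used. Listed in the submitters' processing notes, without roles, are STAR 2.5.3a, Bowtie2 2.3.3, CASAVA 1.8.2 and bedtools 2.16.2, and hg38 (GRCh38) as the build. The authors deposited, per gene and strand, an expected count and an RPKM value, as read from the values of tables without headers; RPKM was count over length and 1 constant per library. The labels name no molecular identifiers, so limits cover counting error only. Sense strands came from GENCODE release 29; unmatched entries and shared regions (3.32 to 3.64% of counts) were left out.

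Expected counts were rounded and tested with edgeR 4.0.16 (R 4.3.3; TMM, filterByExpr, quasi-likelihood test, Benjamini-Hochberg over 21238 genes, threshold 0.05). The test was checked on simulated data, where at the spread of these libraries it missed most changed genes. The antisense minimum of 10 counts was chosen after seeing the data. Standard errors were taken as log2 fold change over root F, and CPM use TMM-scaled sizes. Alternatives were 3 other scalings, no filter, DESeq2 1.42.0, limma 3.58.1 (voom, or log2 of RPKM plus 0.1), a replicate block and leaving out each library. Members, lists and tests were chosen with earlier results of these data known. Named genes were the members, the 3 of each list with the smallest p, the 3 nearest profiles of each member and its nearest tested same-strand genes; some of these are not reported here. A planned comparison of KLF protein sequences was not made.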

Additional observations from a re-analysis of the deposited data

Results flagged for a closer look

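Antisense reads at 2 members stood above their level in both isotonic libraries while the comparisons of groups rest on sense reads. At KLF6 the antisense strand averaged 1.01 CPM in the hypertonic libraries (1.23 and 0.786 CPM), against 0.0245 and 0.619 CPM in the isotonic libraries. At KLF2 it averaged 0.344 CPM in the hypertonic libraries (0.422 and 0.265 CPM), against 0 and 0.0516 CPM in the isotonic libraries. Neither was tested, and 54.8% of antisense entries with at least 10 counts stood likewise above in both hypertonic libraries.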

How the results depend on the processing

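KLF10 and MYC stayed negative and short of the threshold in all 12 alternatives, with log2 fold changes of -1.74 to -0.48 and -2.40 to -0.14. KLF6 stayed negative in all 12, passed in DESeq2 (-1.90) and without the filter (-1.95), and ranged from -2.36 to -1.14 over left-out libraries. All 12 reuse the same libraries. At KLF6 and KLF10 both hypertonic values lay under both isotonic ones, so leaving out 1 library could hardly have turned the sign. KLF2 turned negative when hypertonic replicate 2 (-0.07) or isotonic replicate 1 (-0.80) was left out, and ranged from -0.80 to 2.19 over left-out libraries. Members called were 1 in DESeq2 and 1 without the filter, and 0 otherwise. Genes called were 0 with edgeR, 916 without the filter, 731 in DESeq2, 384 with the replicate block, and 0 to 3654 over left-out libraries, where a lone library is assumed to vary like the other group; the cause was not tested. Same-numbered libraries deviated together with a correlation of 0.0247 over 21238 genes. That value cannot show whether same-numbered libraries were made together, and the main fit used no pairing. With the replicate number as a block KLF6, KLF10, MYC and KLF2 stood at -1.79, -1.12, -1.27 and 0.62, none passing. KLF4 had too few counts for any of these. Depth limits KLF4, at 3 counts or 0, while KLF2 differed 8.07-fold between its isotonic libraries.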
